A study of Mus musculus with 2 samples.

Results

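Ephrins are cell surface ligands and Eph proteins are the receptor tyrosine kinases that bind them on a neighbouring cell. The genes described here are 3 ephrins, Efnb2, Efnb1 and Efna1, and 5 receptors, Ephb4, Ephb2, Ephb3, Epha3 and Epha4. They were chosen by symbol, and every probe set that the platform annotation assigned to exactly 1 of them was read. Of these 8 genes, 7 had such probe sets, 20 in all, out of 34945 single-gene probe sets for 18193 genes. Ephb2, an EphB receptor, was not listed in the annotation used and is not analysed here.

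Expression was measured on 1 array of Tbx20 mutant cells and 1 array of control cells, both from mouse hearts at embryonic day 12.5. The mutant genotype was Tie2Cre;Tbx20 loxP/-, with 1 floxed and 1 null allele, and the control genotype was Tie2Cre;Tbx20 +/loxP, with 1 working and 1 floxed allele. Tbx20 encodes a T-box transcription factor needed in the embryonic heart. Both groups thus carry the Tie2Cre transgene, driven by the promoter of the endothelial receptor gene Tek (Tie2), which acts on loxP sites in endothelium, endocardium, the cushion mesenchyme that arises from endocardium, and blood. Live cells of this lineage were sorted as negative for the blood markers CD41, CD45 and Ter119. The null allele belongs to the whole animal and is not limited to the lineage, and whether embryos were pooled is not given in the sources used here. Cre can act on the floxed allele in both groups, so where it has acted the control lineage keeps 1 working Tbx20 allele and the mutant lineage none. The comparison is thus with a lineage of 1 working allele and not with intact Tbx20. With 1 array in each group no difference below has a replicate check or a p-value, and genotype cannot be told apart from any other difference between the preparations.

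Binding of an ephrin to an Eph receptor sends a forward signal into the receptor cell and, through ephrin-B proteins, a reverse signal into the ligand cell. Ephrin-A ligands are anchored to the membrane by a lipid, while ephrin-B ligands span it and have a cytoplasmic tail. In the vasculature, ephrin-B2 marks arterial endothelium and EphB4 venous endothelium, and mice without either fail to remodel their vessels. In the heart, ephrin-A1 is known from the endocardium and EphA3 from the mesenchyme of the atrioventricular cushions, where mouse embryos without EphA3 form defective cushions.

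Of the members, Efnb2 and Epha3 had 4 measured probe sets that all differed in 1 direction, and they are shown with the 250 bases before their start sites, from RefSeq on GRCm38.p6. All 8 genes matched that table, with 9 windows. The Efnb2 window is chr8:8661243-8661492 and the Epha3 window is chr16:63864176-63864425, and both genes lie on the minus strand. Capitals mark CCAAT, searched on both strands.
Efnb2: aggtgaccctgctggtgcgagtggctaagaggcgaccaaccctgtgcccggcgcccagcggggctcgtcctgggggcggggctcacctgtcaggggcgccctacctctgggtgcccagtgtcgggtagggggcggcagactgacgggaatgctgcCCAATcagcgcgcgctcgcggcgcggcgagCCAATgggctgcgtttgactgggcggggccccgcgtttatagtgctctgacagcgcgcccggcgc
Epha3: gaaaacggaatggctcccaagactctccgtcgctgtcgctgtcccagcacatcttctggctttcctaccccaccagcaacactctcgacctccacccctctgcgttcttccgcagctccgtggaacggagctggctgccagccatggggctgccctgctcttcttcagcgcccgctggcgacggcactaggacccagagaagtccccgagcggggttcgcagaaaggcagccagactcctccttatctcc
Efnb2 held 2 matches to CCAAT, which start 95 and 65 bases before the start site, and Epha3 held 0. CCAAT, known as a box of many promoters, occurred on either strand in 33.8% of 32851 windows of this length. The T-box core GTGTGA, searched on both strands, occurred in neither window and in 12.3% of all windows. The RBPJ core TGGGAA, a site of Notch signalling, also occurred in neither and in 21.6% of all windows. In member windows not shown, Efna1 held 1 T-box core, 14 bases before a start site. Efnb1 held 2 RBPJ cores and Epha4 held 1. These matches describe the letters in these windows only, and nothing about the binding of a factor was measured.

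The deposited values are MAS5 signals, which are linear brightness values scaled by 1 factor per array. A probe set counted as measured where its signal exceeded the median of its array on both arrays, which was 82.4 in the mutant and 91.3 in the control. Of the 20 member probe sets, 18 were measured, and the 2 under this floor on both arrays belong to Epha4. A signal depends on the probes as well as on the transcript, so no transcript level is compared between genes. Signals summed over a list below are weighted toward its brightest probe sets. Of 7 member genes, each read by its brightest probe set (highest mean log2 signal over the arrays), 1 was at least 2-fold lower in the mutant, Epha3, and 0 were at least 2-fold higher. Over all 10665 measured genes, 1.46% were at least 2-fold lower and 0.647% at least 2-fold higher. At 1.5-fold the members gave 1 lower and 0 higher, against 6.61% and 4.37% of all measured genes, and at 3-fold 0 and 0, against 0.178% and 0.0469%. Log2 ratios of mutant over control had a median of -0.11 over the 7 genes and -0.01 over all measured genes, with an SD over all measured genes of 0.38.

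**Figure D1:**
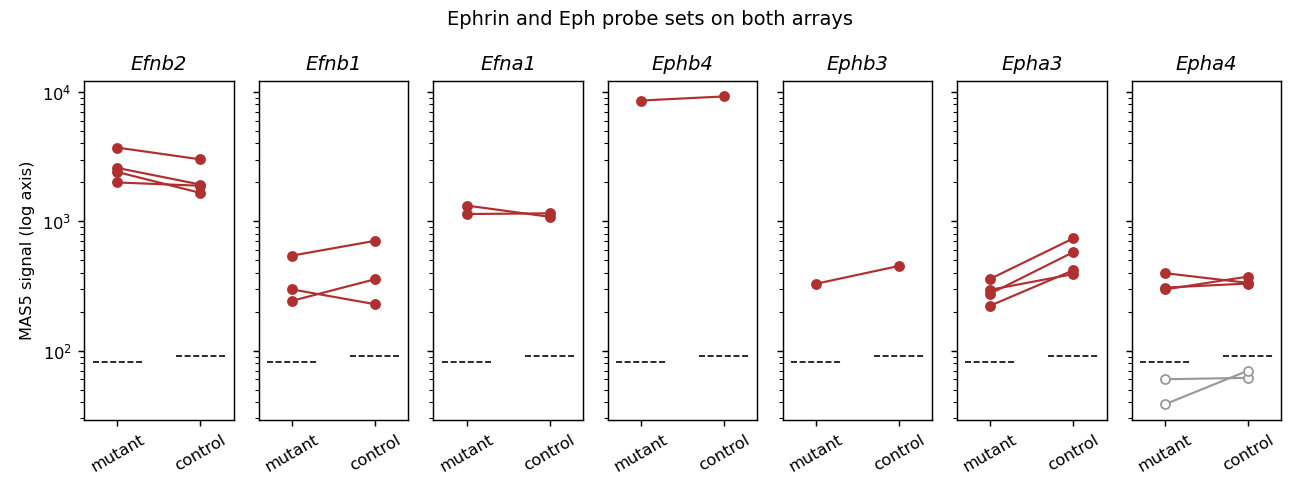
MAS5 signal (log axis) of each probe set of the 7 ephrin and Eph genes in the mutant array and the control array, joined by a line for each probe set; dashed lines are the floors of 82.4 and 91.3, and open grey points lie under the floor on both arrays. All 4 lines of Efnb2 run higher in the mutant and all 4 lines of Epha3 run lower.

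The sorted cells carried strong endothelial signal on both arrays. Each of 8 pan-endothelial markers, among them the cadherin gene Cdh5 and the Tie2 gene Tek, was measured. By their brightest probe sets they had a median log2 ratio of 0.10 and a range of -0.01 to 0.16. The 6 endocardial markers had a median of 0.18. Tbx20 was read by 3 probe sets at log2 ratios of -0.25, -0.22 and -0.73, and the labels do not say which part of the gene the floxed allele removes, so this may check nothing about the deletion. All 8 cushion mesenchyme markers, Tbx20 among them, were lower in the mutant by their brightest probe sets (median -0.38). All 5 measured epicardial markers were higher (0.62), all 4 measured erythroid genes were lower (-0.99), and 4 of 8 myocardial markers were higher (-0.04). Of all measured genes, 49.0% were higher and 51.0% lower. Leukocyte markers differed in both directions: Cd68 read 162 in the mutant, against 93.8 in the control (0.79), Csf1r and Cx3cr1 were above the floor in the control only, and Ptprc and Fcgr1 were under it on both arrays. The median of the list was -0.83 over 3 genes with the floor at the 25th percentile.

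Among the ligands, Efnb2 was higher in the mutant by every probe set. Its probe sets read 3708, 2582, 2401 and 1995 in the mutant, against 3008, 1923, 1656 and 1881 in the control. Each mutant signal was thus 123%, 134%, 145% and 106% of the control signal of the same probe set. The mean log2 ratio was 0.34 (SD 0.19 over 4 probe sets), and the values ran between 0.08 and 0.54. No Efnb2 probe set came near 2-fold. The probe sets share 1 RNA sample per array, so their spread covers probe error and not animals. Of the 498 genes with 4 measured probe sets, 10.2% had all 4 higher in the mutant, and 4.42% had a median as high as that of Efnb2 (0.36). For genes of signal over 1000 the probe sets of a gene differed with an SD of 0.28, and this is the class to which Efnb2 belongs. In that class 12.8% of 4347 genes had a log2 ratio at or above the 0.30 of its brightest probe set.

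Efnb1, the other ephrin-B ligand measured here among the chosen genes, gave probe sets that disagreed. They read 543, 243 and 298 in the mutant, against 706, 357 and 229 in the control. The log2 ratios were -0.38, -0.55 and 0.38, a mean of -0.18 with an SD of 0.50 over 3 probe sets. The spread between its probe sets exceeded the mean, so the array gave Efnb1 no consistent direction. The probe set on the higher side was the dimmest of the 3 and the one whose identifier has no letter suffix, which marks probes designed for a single transcript. Efna1, the ligand known from the endocardium, read 1323 and 1138 in the mutant, against 1083 and 1153 in the control. Its log2 ratios of 0.29 and -0.02 lay on either side of 0, and the probe sets differed by about as much as the larger ratio.

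Of the receptors, Ephb4, the venous partner of ephrin-B2, had 1 probe set, which read 8564 in the mutant, against 9214 in the control. Its log2 ratio of -0.11 corresponds to 92.9% of the control signal. That ratio is smaller than the SD between probe sets of genes of signal over 1000, and 33.1% of genes in that class were at least as low. The mutant array was higher in all 4 Efnb2 probe sets, but the lowest of these, at 0.08, was also within this SD of 0.28. The brightest Efnb2 probe set, at 0.30, was barely beyond it. Ephb4 rests on 1 probe set, so no contrast between the genes is drawn. Ephb3, an EphB receptor, also had 1 probe set, which read 329 in the mutant, against 452 in the control, a log2 ratio of -0.46. For genes of signal between 200 and 1000 the SD between probe sets was 0.37, and 12.4% of genes in that class were as low as Ephb3 or lower.

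Epha3, the EphA receptor of cushion mesenchyme, was lower in the mutant by every probe set. Its probe sets read 360, 276, 296 and 223 in the mutant, against 738, 578, 391 and 419 in the control. The mutant signals were 48.7%, 47.8%, 75.7% and 53.3% of control. The log2 ratios were -1.04, -1.06, -0.40 and -0.91, a mean of -0.85 with an SD of 0.31 over 4 probe sets. Of these, 2 were at least 2-fold lower, against 1.46% of all 19273 measured single-gene probe sets. The probe set with the smallest difference was the one that read 296 in the mutant. Among the 498 genes with 4 measured probe sets, 12.0% had all 4 lower. Epha3 and 1 other gene, 0.402% of the 498, had every probe set at or below -0.40, and Epha3 alone, 0.201% of the 498, had a median as low as -0.97. By its brightest probe set alone, Epha3 stood among the lowest 1.19% of the 4969 genes of signal between 200 and 1000, of which 1.37% were at least 2-fold lower.

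Epha4, an EphA receptor that also binds ephrin-B ligands, showed no shared direction. Its 3 measured probe sets read 398, 297 and 307 in the mutant, against 334, 374 and 331 in the control. The log2 ratios of 0.25, -0.33 and -0.10 had a mean of -0.06 and an SD of 0.29. The other 2 probe sets read 60.2 and 38.6 in the mutant, against 61.8 and 70.2 in the control, under the floor on both arrays. Across all 18 measured member probe sets, 7 were higher in the mutant, 4 of them from Efnb2, and 11 lower, 4 of them from Epha3. Over all 19273 measured single-gene probe sets, 9617 were higher and 9656 lower. The 18 had a median of -0.11 and an SD of 0.50, against an SD of 0.40 over all measured single-gene probe sets.

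**Figure D2:**
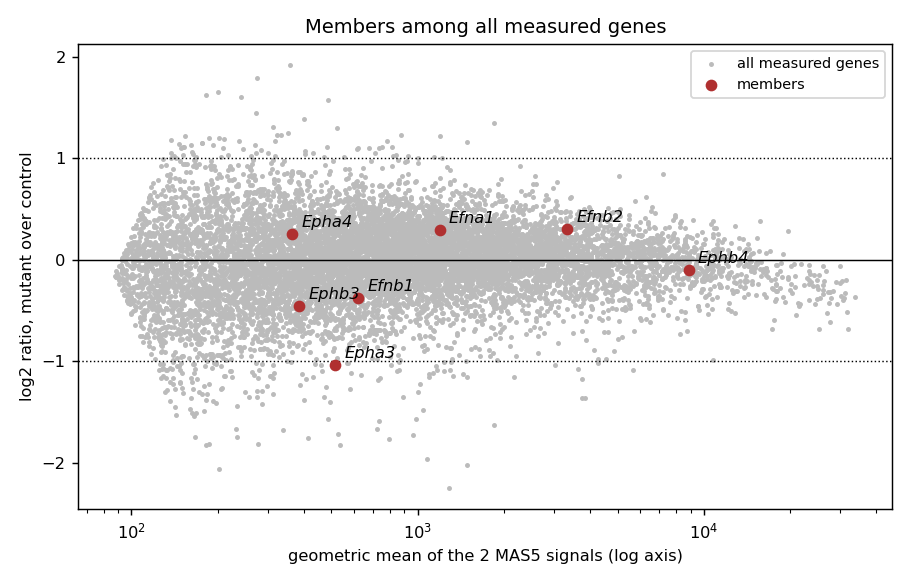
Log2 ratio of mutant over control against the geometric mean of both MAS5 signals (log axis) for the 10665 measured genes (grey) and the 7 ephrin and Eph genes (red), each gene read by its brightest probe set; dotted lines mark 2-fold. Epha3 at -1.04 is the one member beyond 2-fold, and Ephb4 at -0.11 lies near 0 among bright genes.

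Markers of cushion mesenchyme were lower on the same array as Epha3. Prrx1, a homeobox factor of mesenchyme, was at -0.75, and Postn, which encodes the matrix protein periostin, at -0.73. Twist1, a regulator of epithelial-mesenchymal transition, was at -0.52 and Vcan, the proteoglycan versican, at -0.50. Tbx20 itself was at -0.25, Pdgfra, a growth factor receptor, at -0.13, Col1a1, a collagen chain, at -0.11 and Sox9, a cushion transcription factor, at -0.07. The median without Tbx20 was -0.50, and the summed signal of all 8 was 36919 in the mutant, against 48473 in the control. Among other measured probe sets of these markers, Prrx1 reached down to -0.91, while those of Pdgfra disagreed, at -0.81 and 0.20. The Epha3 probe sets at -0.91 and -0.40 lay within the range of the marker probe sets and those at -1.04 and -1.06 below it. In sorted bulk cells, fewer mesenchymal cells and less Epha3 RNA per cell cannot be told apart, and the part of the mesenchymal markers in the Epha3 difference was not tested. Some genes of the other marker lists were also lower, by differing amounts. From the smooth muscle and pericyte list, Cspg4 was at -0.93 and -1.08 by its 2 probe sets and the receptor gene Pdgfrb at -0.35 and -0.45. Which of the sorted cells expressed these genes was not tested. The smooth muscle and pericyte list as a whole had 2 of 5 measured genes higher, against 49.0% of all measured genes. Its median was -0.03, and Myh11, a smooth muscle myosin gene, was under the floor on both arrays. Sox10, a neural crest factor, was above the floor in the control only, with 64.3 in the mutant, against 137 in the control, while Tubb3, a neuronal tubulin gene, was at -0.20. The erythroid list had a summed signal of 7442 in the mutant, against 11510 in the control over 5 genes, most of it from the embryonic globin gene Hbb-y, with 6606 in the mutant and 9843 in the control. The part of these markers in the Epha3 difference was likewise not tested.

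The values beside Efnb2 varied between markers. By their brightest probe sets the pan-endothelial markers stayed between -0.01 and 0.16, below 3 of the 4 Efnb2 probe sets. Of their other probe sets, that of the endoglin gene Eng was at -0.36 and that of Cdh5 at 0.04. Among endocardial markers, Npr3, a natriuretic peptide receptor, was at 0.25, 0.50 and 0.53 by its 3 probe sets. Adgrg6, an adhesion receptor, was at 0.53 and 0.33, Tmem100 at 0.19 and 0.54, and Plvap at 0.16. These values were of about the size of those of Efnb2. On the lower side, Nfatc1, a transcription factor of the endocardium, was at -0.33 by its brightest probe set. Its 5 measured probe sets ran from -1.58 to 0.16. Cytl1, a secreted protein, was at -0.85. The epicardial list had a summed signal of 7635 in the mutant, against 4353 in the control over 7 genes. Most of it came from Tcf21 and the uroplakin gene Upk3b, which were at 0.47 and 1.35. The sum includes Upk1b, whose brightest probe set was above the floor in the mutant only. It also includes the mesothelin gene Msln, which was under the floor on both arrays. The part of these markers in the Efnb2 difference was not tested.

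**Figure D3:**
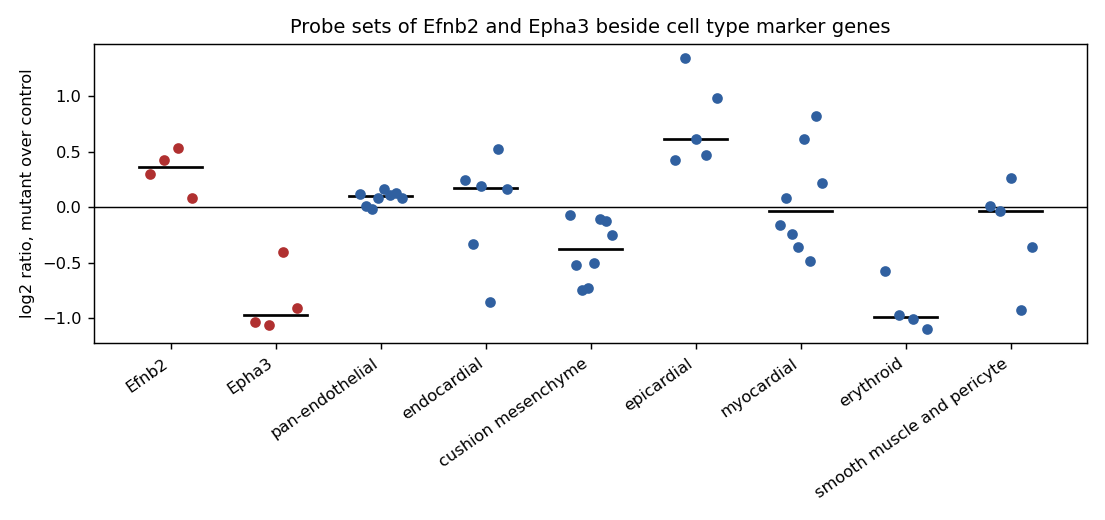
Log2 ratio of mutant over control for the probe sets of Efnb2 and Epha3 (red) and for the measured genes of 7 cell type marker lists (blue, 1 probe set per gene); black bars are medians. Epha3 has a median of -0.97 over its probe sets, against -0.38 over cushion mesenchyme genes, Tbx20 included (-0.50 without it). Efnb2 has a median of 0.36 over its probe sets, against 0.10 over pan-endothelial genes. A median over probe sets of 1 gene is not the same measure as a median over genes.

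Arterial genes, to which Efnb2 belongs, differed in both directions. Of 14 measured members, Efnb2 included, 6 were higher and 8 lower, 0 of them by 2-fold, close to the 49.0% higher and 51.0% lower of all measured genes. Their median of -0.25 was -0.12 with the median over probe sets and with the floor at the 75th percentile. The connexin gene Gja5 was at -0.87 and the chemokine receptor gene Cxcr4 at -0.62, while the Notch ligand gene Dll4 was at 0.62 and the connexin gene Gja4 at 0.58. Each of these had 1 measured probe set except Dll4, whose other one was at 0.44. Of 7 venous genes, Ephb4 included, 2 were higher and 5 lower, 0 by 2-fold, against the same 49.0% and 51.0%, with a median of -0.15 (-0.08 with the median over probe sets). There, the apelin receptor gene Aplnr was at -0.88 (-0.23 by its other probe set), the neuropilin gene Nrp2 at -0.43 with probe sets up to 0.24, the gene of von Willebrand factor, Vwf, at -0.38 and the lymphatic growth factor receptor gene Flt4 at -0.15. On the higher side were Emcn, an endothelial sialomucin gene, at 0.11, and Nr2f2, a transcription factor of venous identity, at 0.15 by its brightest probe set and at 0.55, 0.75 and 0.59 by the other measured ones, all 4 higher, as in 10.2% of genes with 4 measured probe sets. Ephb4 at -0.11 lay between these 2 genes and the 4 lower ones.

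The rest of the family comprises 14 genes, of which 7 were measured, 5 of them higher and 2 lower in the mutant and 0 by 2-fold. Of all measured genes, 49.0% were higher and 51.0% lower, 0.647% and 1.46% by 2-fold. The median of the 7 was 0.49, but 0.24 with the median over probe sets and with the floor at the 25th percentile, which measured 11 of them. Epha2, an EphA receptor, read 533 in the mutant, against 296 in the control, a log2 ratio of 0.85 from its only probe set. Epha1, an EphA receptor, read 356 and 278 in the mutant, against 220 and 159 in the control, or 0.69 and 0.81, with a further probe set under the floor. Efna5, an ephrin-A ligand, read 438 and 386 in the mutant, against 311 and 253 in the control, or 0.49 and 0.61. The pairs of probe sets of Epha1 and Efna5 thus gave nearly the same ratio, and 28.2% of the 3034 genes with 2 measured probe sets had both higher. Efna4, an ephrin-A ligand with 1 probe set, was at 0.24, and Efnb3, an ephrin-B ligand, at -0.24.

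Other family genes rested on probe sets that disagreed or were dim. Efna2, an ephrin-A ligand, read 1393 and 195 in the mutant, against 718 and 275 in the control, so its log2 ratios of 0.96 and -0.50 oppose each other. Epha7, an EphA receptor, had 4 measured probe sets, all lower, as in 12.0% of genes with 4 measured probe sets. They read 700, 269, 256 and 89.0 in the mutant, against 718, 611, 464 and 166 in the control. The brightest was at -0.03 and the other 3 at -1.18, -0.86 and -0.90, so the value depends on the probe set chosen. The median of the 4 was -0.88, against -0.97 for Epha3. Ephb6, a receptor without kinase activity, was above the floor in the mutant only, at 106, which gives at least a 1.16-fold higher signal against the floor of the control. Efna3, Epha5, Epha6, Epha8, Epha10 and Ephb1 were under the floor on both arrays.

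**Figure D4:**
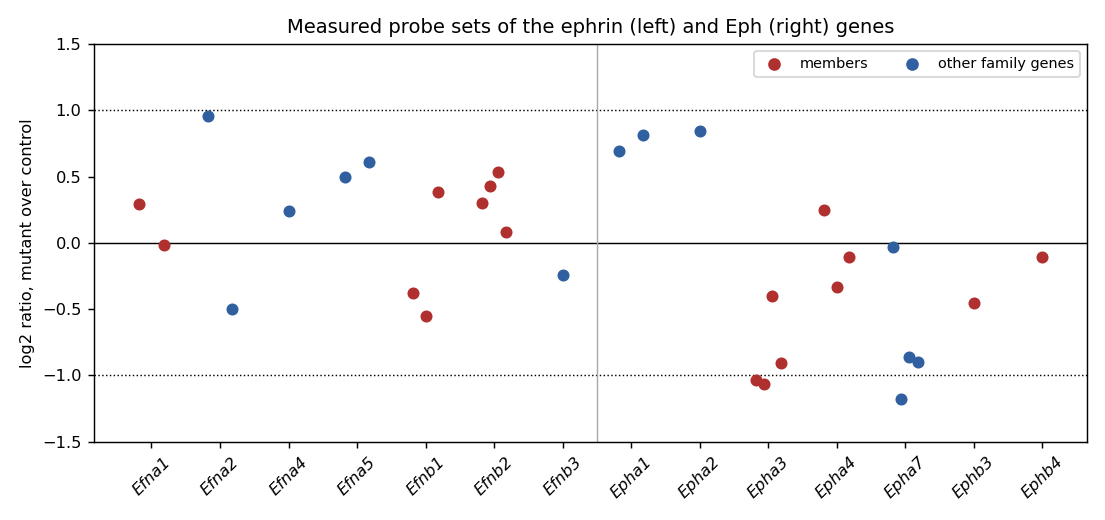
Log2 ratio of mutant over control for each measured probe set of the ephrin genes (left of the grey line) and the Eph genes (right), with the chosen members in red and other family genes in blue; dotted lines mark 2-fold. The probe sets of Epha3 lie between -1.06 and -0.40, those of Efnb2 between 0.08 and 0.54, and those of Efna2 on both sides of 0.

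Genes that act downstream of the receptors differed in size and direction. Of 16 measured partners of forward signalling, 12 were higher and 4 lower, 0 by 2-fold, with a median of 0.10 (0.03 with the median over probe sets and 0.01 with unsuffixed probe sets), and of all measured genes 49.0% were higher and 51.0% lower by any amount. Kalrn, a guanine nucleotide exchange factor, was at -0.76 with its other probe set at -0.44. Tiam1, an exchange factor for Rac that can bind both Eph receptors and ephrin-B, was at -0.68 by its brightest probe set and 0.71 by the other. Chn1, a Rac GTPase-activating protein that acts below EphA4, was at 0.51 (0.01 by the other probe set), and its relative Chn2 at 0.46. Ngef, an exchange factor, was under the floor on both arrays.

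Of 10 partners of ephrin-B reverse signalling, 4 were higher and 6 lower, 0 by 2-fold, near the 49.0% and 51.0% of all measured genes, with a median of -0.18 (-0.02 with the median over probe sets). Dvl2, a Dishevelled adaptor of a kind that binds ephrin-B1 in Xenopus, was at 0.77 with its other probe set at 0.35, and Dab2, an endocytic adaptor of endothelial ephrin-B2, at 0.37 with probe sets between -0.22 and 0.79. Pdzrn3, a ubiquitin ligase with PDZ domains, was at -0.58. Of 5 measured enzymes that cut ephrins or Eph receptors, 3 were higher and 2 lower, 0 by 2-fold, with a median of 0.08 that was -0.11 with the floor at the 75th percentile or unsuffixed probe sets. The protease genes Adam10 and Mmp14 were at -0.32 and -0.29, but other probe sets of these genes reached 0.36 and 0.07. Adam17, a related protease gene, was at 0.22 with all 3 probe sets above 0, and Psen2, a subunit of gamma-secretase, at 0.25.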

How the data were processed

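The deposited values are intensities, 1 for each of 45101 probe sets, made by the authors with MAS5 per the submitters' processing notes; its version is not given in the sources used here. Each array had a trimmed mean (2% off each end) of 500. Signals were used as deposited, floored at each array's median over non-control probe sets, and put on the log2 scale. Genes came from the platform annotation, and 34741 of 34945 single-gene probe sets matched the reference gene table. A gene took its brightest single-gene probe set. With 1 array per group no test was run, and the number of arrays limits the precision. Named genes are all members, all other family genes and up to 4 genes per list with the largest absolute ratio; other marker genes were added after their values were seen. Members and lists were chosen with earlier results of these data known. Alternatives covered scaling, floor, probe set choice and fold. The steps were tested on simulated data. Python 3.11.15, pandas 2.3.3 and statsmodels 0.14.6 were used.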

Additional observations from a re-analysis of the deposited data

How the results depend on the processing

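The count of members at least 2-fold lower, 1 by the settings reported, stayed 1 with median scaling, quantile normalization, loess, the 25th percentile floor and unsuffixed probe sets, and was 1 at 1.5-fold, which 6.61% of all measured genes passed. It was 0 with the floor at the 75th percentile, where Epha3 was not measured and 4 members remained, 0 with a pseudocount of each array's median (Epha3 at -0.91), 0 with the median over probe sets (Epha3 at -0.97) and 0 at 3-fold. The count of members at least 2-fold higher was 0 under every alternative run, also at 1.5-fold. The median of the members was 0.27 with unsuffixed probe sets, which leave out Ephb4 and turn Efnb1 to 0.38, and 0.09 with the 75th percentile floor; the other settings gave -0.11 to -0.03, among them the median over all 18 measured probe sets, chosen after seeing the data. Efnb2 ran from 0.28 to 0.36 over 8 alternatives and Epha3 from -1.05 to -0.91 over 7. Epha4 was at -0.10, Efna2 at 0.23 and Epha7 at -0.88 with the median over probe sets, and Epha7 at -1.18 with unsuffixed ones. No paired analysis was possible because each group has 1 array. Dim probe sets limit what can be read for Epha4, Ephb3 and Epha3.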
